A study of Mus musculus with 4 samples.

Results

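MHC class II antigen presentation was followed in mouse colon mucosa through 7 genes: H2-Aa, H2-Ab1, H2-Eb1, Cd74, H2-DMa, H2-DMb1 and Ciita. The measurements of a gene were all probe sets of the array whose only gene symbol in the platform annotation was that gene. This gave 14 probe sets for 6 of the 7 genes, of 34958 such probe sets for 18194 genes in all. H2-DMb1 had no probe set of its own, because both probe sets that name it also name its neighbour H2-DMb2. The study hybridised 1 array for each of 4 genotypes, all from mucosal scrapings of mice on the 129S6/SvEv background, 5 weeks of age. The VhlΔIE/Apcmin/+ mice had Vhl deleted in the intestinal epithelium and carried the Min allele of Apc, an intestinal tumour model. The VhlΔIE mice had Vhl deleted in the intestinal epithelium. The VhlF/F/Apcmin/+ mice carried the Min allele with floxed Vhl, and the VhlF/F mice carried floxed Vhl alone. The design text names 5, 3, 3 and 4 mice in that order, and whether their RNA was pooled on the array is not given in the sources used here. The labels do not name the promoter that drives Cre, and the floxed allele was present in all 4 groups.

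MHC class II molecules are pairs of an alpha and a beta chain that show peptides from endosomes to CD4 T cells. The invariant chain, encoded by Cd74, joins the newly made pair, fills its groove and guides it to the endosome. There H2-DM exchanges the last fragment of the invariant chain for a peptide. Transcription of these genes depends on CIITA, a coactivator recruited to a shared promoter module of an X box and a Y box. Dendritic cells, macrophages and B cells express class II constitutively, and interferon gamma can induce it in other cells, intestinal epithelium among them. The Vhl protein recognises hypoxia-inducible factors and has them ubiquitinated and degraded, and the comparisons ask how class II transcripts differ with its loss, alone or with mutant Apc.

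The promoter module is shown for those of the 7 genes whose RefSeq window of 300 bases, on GRCm38.p6 of the C57BL/6J reference, held it. Windows were on hand for 4 of the 7 genes, H2-Aa, H2-Eb1, H2-DMa and H2-DMb1, and not for H2-Ab1, Cd74 and Ciita. The stretches below lie upstream of the gene start and run 5′ to 3′ on the gene's strand. Capitals mark the X box core, GNAAC, and the Y box, ATTGG. H2-Ob, a class II gene outside the 7, is shown for comparison because its transcript did not share the difference of H2-Aa and H2-Eb1 described below. That transcript was dim, at log2 values of 5.75 to 6.39. The windows of H2-Oa and H2-Eb2, also outside the 7, held the module too and are not printed.
H2-Aa, chr17:34287857-34287919, minus strand: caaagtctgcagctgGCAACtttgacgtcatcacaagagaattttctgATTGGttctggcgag
H2-Eb1, chr17:34305761-34305822, plus strand: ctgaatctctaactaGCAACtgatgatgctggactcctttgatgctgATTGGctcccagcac
H2-DMb1, chr17:34153082-34153144, plus strand: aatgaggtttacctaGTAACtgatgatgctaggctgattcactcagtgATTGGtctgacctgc
H2-Ob, chr17:34238803-34238862, plus strand: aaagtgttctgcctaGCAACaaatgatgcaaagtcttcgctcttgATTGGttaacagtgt

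The X core and the Y box were separated by 28 bases in H2-Aa, 27 in H2-Eb1, 28 in H2-DMb1 and 25 in H2-Ob. A pair of these motifs on the same strand, 10 to 35 bases apart, was held by 1375 of all 32851 promoter windows, 4.19%, with both strands searched. The core GNAAC was chosen after the sequences had been read. With the longer core CCNNGNNAC, 487 windows, 1.48%, held a pair. Those of H2-DMb1, H2-Ob and H2-Oa were among them, and those of H2-Aa, H2-Eb1 and H2-Eb2 were not. Neither of the 2 windows of H2-DMa held a pair with either core. The motif ATTGG is the reverse complement of CCAAT and does not overlap the X core.

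Values are RMA values on the log2 scale, as deposited, so a difference of 1 is a 2-fold difference. A gene was represented by its brightest probe set, that of highest mean across the arrays, and it entered a summary when that probe set reached a log2 value of 6 on at least 1 array. H2-Aa, H2-Ab1, H2-Eb1, Cd74 and H2-DMa passed this floor on every array, and Ciita passed on none. In the series as a whole 11871 genes passed. Each genotype had 1 array, so no difference has a replicate check and no p-value is given.

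H2-Aa and H2-Ab1 encode the alpha and the beta chain of the I-A molecule. H2-Ab1 read 10.77 in the VhlΔIE array against 9.43 in the VhlF/F array, a difference of 1.34 or 2.53-fold. In the pair that carried the Min allele it read 10.74 in the VhlΔIE/Apcmin/+ array against 9.47 in the VhlF/F/Apcmin/+ array, a difference of 1.27 or 2.41-fold. The arrays thus fell into a higher pair with deleted Vhl and a lower pair with floxed Vhl. The remaining H2-Ab1 probe sets differed by 1.45 and 1.39 without the Apc mutation and by 1.15 and 1.17 with it.

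The highest-mean probe set of H2-Aa read 11.59 in the VhlΔIE array and 10.77 in the VhlF/F array, a difference of 0.82. In the pair that carried the Min allele it read 11.32 in the VhlΔIE/Apcmin/+ array and 10.62 in the VhlF/F/Apcmin/+ array, a difference of 0.70. The alpha chain was therefore higher in both Vhl deleted arrays, as the beta chain was, but by less. Across the 3 H2-Aa probe sets that reached the floor, the differences ran from 0.77 to 1.02 without the Apc mutation and from 0.56 to 0.70 with it. All 3 H2-Ab1 probe sets lay above these ranges, at 1.34 to 1.45 and 1.15 to 1.27. A dim H2-Aa probe set, under 6 on all arrays, differed by 1.17 and 0.67.

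H2-Eb1 encodes the beta chain of the I-E molecule and had a single probe set. It read 10.49 in the VhlΔIE array and 9.57 in the VhlF/F array, a difference of 0.91. In the pair that carried the Min allele it read 10.32 in the VhlΔIE/Apcmin/+ array and 9.57 in the VhlF/F/Apcmin/+ array, a difference of 0.75. H2-Ea, the alpha chain partner, is annotated in the C57BL/6J reference as a transcribed pseudogene and did not share this difference. Its brightest probe set read 8.08 in the VhlΔIE array and 7.81 in the VhlF/F array, and 8.27 in the VhlΔIE/Apcmin/+ array and 8.43 in the VhlF/F/Apcmin/+ array. Both other H2-Ea probe sets stayed under 6 on every array, at 4.14 to 4.55 and at 2.89 to 3.12. The H2-Ea reading therefore rests on 1 probe set.

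Cd74, the invariant chain, read 11.10 in the VhlΔIE array and 10.41 in the VhlF/F array, a difference of 0.69. In the pair that carried the Min allele it read 11.07 in the VhlΔIE/Apcmin/+ array and 10.29 in the VhlF/F/Apcmin/+ array, a difference of 0.78. Of the 5 genes above the floor it was the only gene with the larger difference in the Apc mutant pair, by 0.09. For the other 4 genes the Apc mutant pair's difference minus that of the wild-type pair was -0.07 for H2-Ab1, -0.12 for H2-Aa, -0.17 for H2-Eb1 and -0.28 for H2-DMa. None of these contrasts between backgrounds could be tested with 1 array a genotype.

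**Figure D1:**
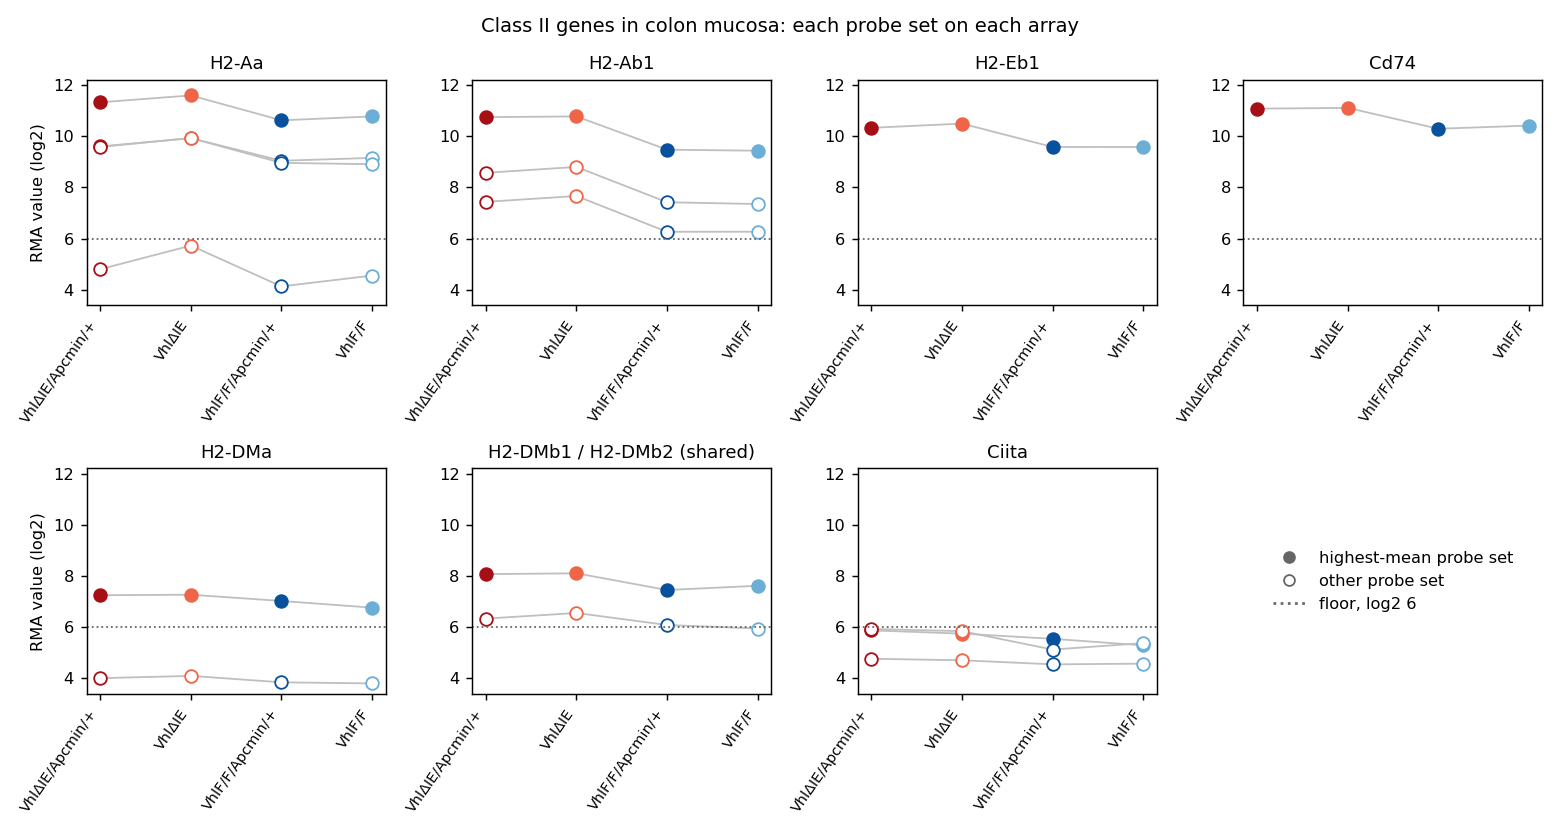
RMA values (log2) of every class II probe set on each of the 4 arrays, with a panel for each gene and grey lines joining the values of 1 probe set. Filled points are the highest-mean probe set, open points the others, and the dotted line is the floor of 6; in each panel both Vhl deleted arrays (red) lie above both Vhl floxed arrays (blue).

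H2-DMa encodes the alpha chain of the peptide exchange factor H2-DM. It read 7.27 in the VhlΔIE array and 6.77 in the VhlF/F array, a difference of 0.50. In the pair that carried the Min allele it read 7.25 in the VhlΔIE/Apcmin/+ array and 7.03 in the VhlF/F/Apcmin/+ array, a difference of 0.23. Among the 5 genes above the floor, H2-DMa had the smallest Vhl difference in both backgrounds. Its other probe set lay between 3.81 and 4.10, near the bottom of the scale, and differed by 0.29 and 0.16.

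The beta chain of H2-DM is encoded by H2-DMb1 and the neighbouring H2-DMb2, which the array separates only in part. The brighter shared probe set read 8.11 in the VhlΔIE array and 7.62 in the VhlF/F array, and 8.07 in the VhlΔIE/Apcmin/+ array and 7.45 in the VhlF/F/Apcmin/+ array. These are differences of 0.49 and 0.62. The dimmer shared probe set differed by 0.61 and 0.25. Probe sets of H2-DMb2 alone were 3 in number and differed by 0.15 to 0.42 without the Apc mutation and by 0.04 to 0.23 with it.

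Ciita, the coactivator on which class II transcription depends, was close to the floor. Its highest-mean probe set read 5.75 in the VhlΔIE array and 5.29 in the VhlF/F array, and 5.88 in the VhlΔIE/Apcmin/+ array and 5.55 in the VhlF/F/Apcmin/+ array. The differences were 0.46 and 0.33. The other 2 Ciita probe sets differed by 0.47 and 0.13 without the Apc mutation and by 0.80 and 0.22 with it. Every Ciita probe set was higher in the Vhl deleted arrays, but none reached the floor, so the size of these differences is uncertain.

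All 14 probe sets of the 6 measured genes read higher in both Vhl deleted arrays than in both Vhl floxed arrays. Of all single-symbol probe sets, 23% did so, and of the genes above the floor 27.7%. Without the Apc mutation 1 of the 5 genes above the floor, H2-Ab1, was at least 2-fold higher, where 2.27% of all genes were. At a 1.5-fold threshold 4 of the 5 were higher, all but H2-DMa, where 6.22% of all genes were. With the Apc mutation 1 of 5 was again at least 2-fold higher, H2-Ab1, where 2.82% of all genes were, and 4 of 5, all but H2-DMa, were at least 1.5-fold higher, where 7.19% of all genes were. All 5 were higher by some amount in both comparisons, where 46.6% and 46.5% of all genes were higher. None of the 5 was at least 1.5-fold lower, where 5.08% and 5.15% of all genes were.

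The median difference of the 5 genes was 0.82 without the Apc mutation and 0.75 with it. The medians over all genes above the floor were -0.02 in both comparisons. Ranked among the 11871 genes, H2-Ab1 had 141 genes above it without the Apc mutation and 209 with it. H2-Eb1 had 331 and 588 genes above it, H2-Aa 426 and 661, and Cd74 592 and 543. H2-DMa had 926 and 2420, so that its place moved most between the backgrounds.

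**Figure D2:**
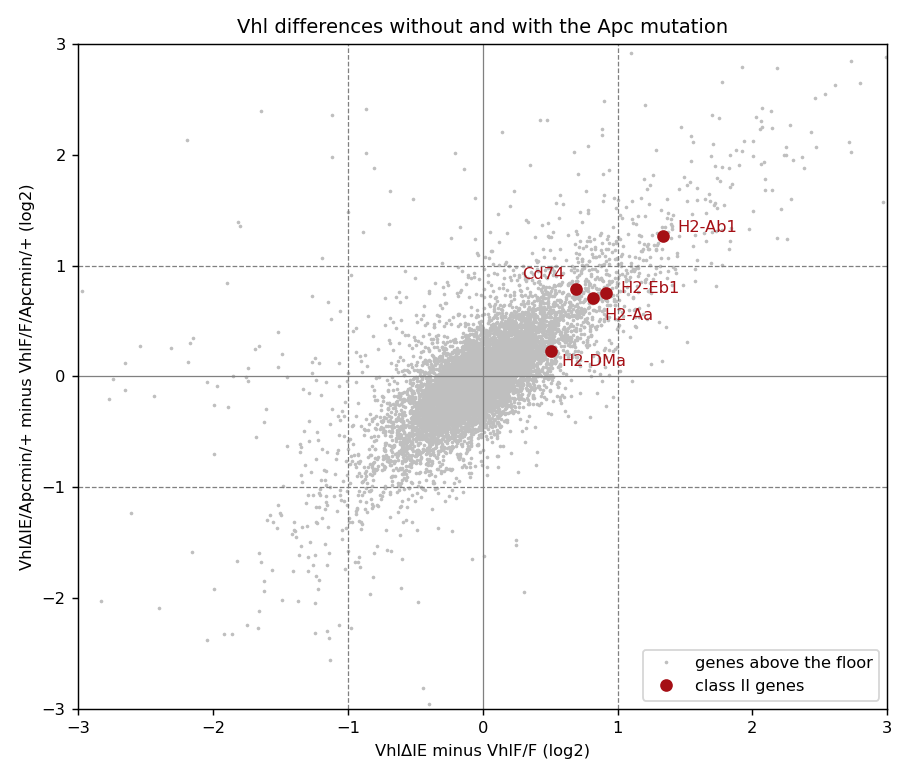
Vhl differences (log2) of the genes above the floor, without the Apc mutation on the horizontal axis and with it on the vertical axis; dashed lines mark 2-fold, and 44 genes lie outside the axes. H2-Ab1 lies past 2-fold on both axes at 1.34 and 1.27, while H2-Eb1, H2-Aa, Cd74 and H2-DMa lie inside it with positive differences on both.

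Apc status went with smaller differences than Vhl status for 4 of the 5 genes. The exception was H2-DMa, whose difference for the Apc mutation with floxed Vhl, 0.26, was above the 0.23 of Vhl deletion in the Apc mutant pair. With floxed Vhl, the 5 genes differed by -0.15 for H2-Aa, -0.12 for Cd74, 0.00 for H2-Eb1, 0.04 for H2-Ab1 and 0.26 for H2-DMa, each the VhlF/F/Apcmin/+ array minus the VhlF/F array. With deleted Vhl, VhlΔIE/Apcmin/+ minus VhlΔIE, they differed by -0.27 for H2-Aa, -0.16 for H2-Eb1, -0.03 for Cd74, -0.03 for H2-Ab1 and -0.02 for H2-DMa. No gene of the 5 was 1.5-fold apart in either comparison, where 1.05% of all genes were higher and 2.36% lower with floxed Vhl, and 0.724% higher and 0.792% lower with deleted Vhl. The medians of the 5 were 0.00 and -0.03, and those of all genes 0.00 and 0.00. These comparisons share arrays with the Vhl comparisons and are not independent of them.

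Set against VhlF/F mice, the mice with both alterations had H2-Ab1 higher by 1.31, H2-Eb1 by 0.75, Cd74 by 0.66, H2-Aa by 0.55 and H2-DMa by 0.48. These values share the VhlF/F array with 2 of the comparisons above. They lie close to those of Vhl deletion without the Apc mutation for H2-Ab1, Cd74 and H2-DMa, and lower for H2-Aa and H2-Eb1.

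**Figure D3:**
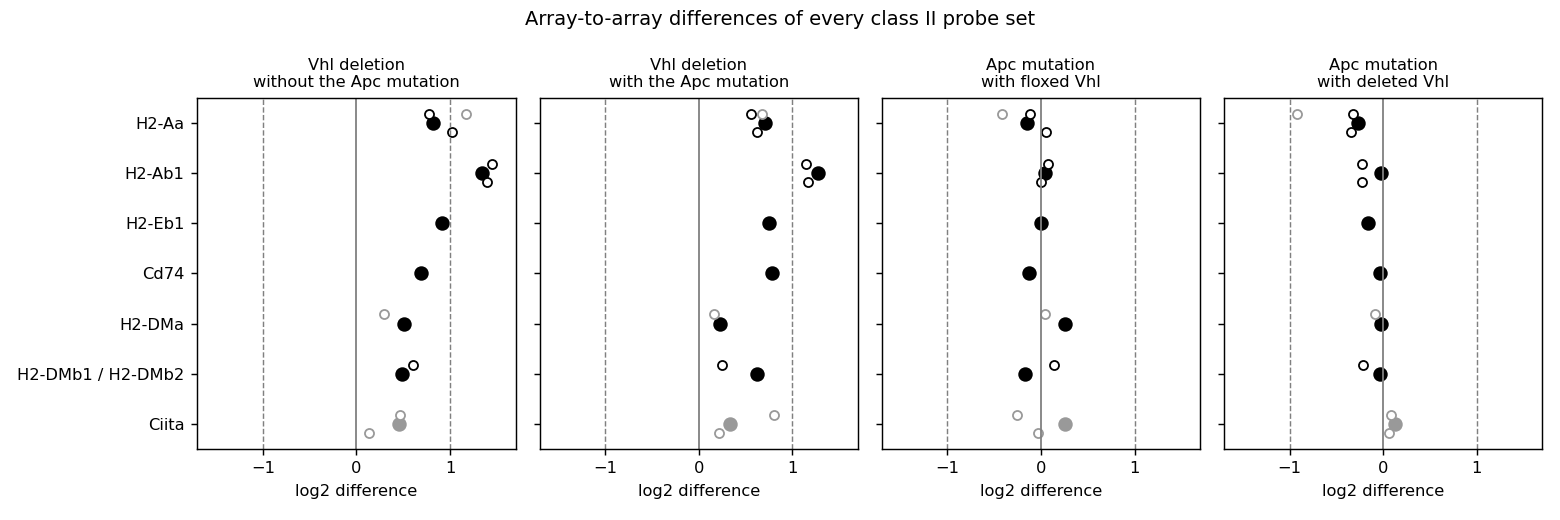
Differences (log2) of every class II probe set in the 4 comparisons, each point a value of the altered array minus that of its control. Filled points are the highest-mean probe sets, open points the others, and grey points never reached the floor of 6; dashed lines mark 2-fold. Points lie right of 0 in both Vhl panels and on either side of it in the panel of the Apc mutation with floxed Vhl.

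The class II genes lie together on chromosome 17, interleaved with genes of class I presentation, apart from Cd74 on chromosome 18 and Ciita on chromosome 16. From H2-Oa to H2-Eb2 the RefSeq order holds 14 protein-coding genes, of which 12 were above the floor. Of these, 5 were higher in both Vhl comparisons: H2-DMa, H2-DMb2, H2-Ab1, H2-Aa and H2-Eb1. Another 5 were lower in both, namely Brd2, Psmb9, Psmb8, Tap2 and H2-Ob. Of all genes above the floor, 46.6% were higher without the Apc mutation and 46.5% with it. The share of all genes with the same sign in both comparisons was not counted. H2-DMb2, H2-Ob and H2-Eb2 read 5.75 to 6.72, near the floor, so the sign of their differences is uncertain. H2-Ab1 and H2-Ob are neighbours in this order, and H2-Ob, the beta chain of the H2-DM inhibitor H2-O, differed by -0.02 and -0.36. Its partner H2-Oa, under the floor, differed by 0.43 and -0.09. H2-Eb2, next to H2-Eb1, differed by -0.37 and 0.18. In this order H2-DMa and H2-DMb2 were followed by a stretch from Psmb9 to H2-Ob in which no gene was higher in both comparisons, and then by H2-Ab1, H2-Aa and H2-Eb1.

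**Figure D4:**
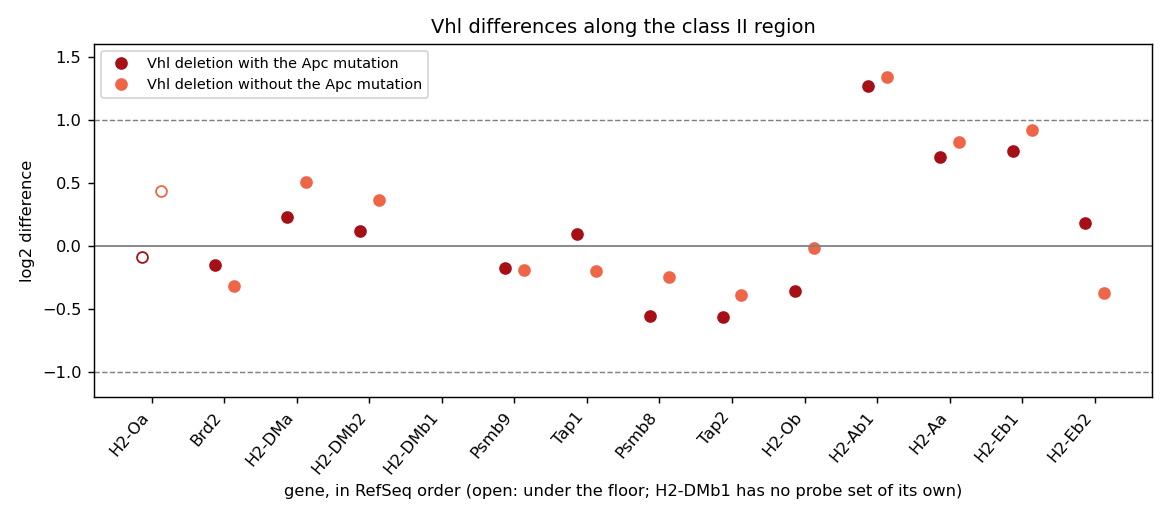
Vhl differences (log2) of the protein-coding genes from H2-Oa to H2-Eb2 on chromosome 17, in RefSeq order, with the Apc mutation (dark) and without it (light); dashed lines mark 2-fold. H2-Ab1, H2-Aa and H2-Eb1 stand at 0.70 to 1.34 beside neighbours between -0.57 and 0.50.

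The rest of the presentation pathway was followed with gene lists. Factors that bind class II promoters, 7 of 7 above the floor, had median differences of 0.04 without and -0.05 with the Apc mutation, with none 1.5-fold apart. Rfx5, a subunit of the X box factor, differed by -0.13 and -0.32, and Creb1 by -0.16 and -0.15. Genes of endosomal processing, 10 above the floor, had medians of -0.01 and -0.04. Among them the proteases Lgmn and Ctsh differed by 0.65 and 0.27 and by 0.43 and 0.36. Class I presentation genes, 10 above the floor, had medians of -0.19 and -0.13, and the peptide transporter subunit Tap2 and the loading factor Tapbp differed by -0.39 and -0.57 and by -0.42 and -0.40.

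Genes of the interferon gamma axis, 11 above the floor, had medians of -0.03 and -0.02, with 0 and 1 at least 2-fold higher. The inducible GTPase Gbp2 read 8.51 in the VhlΔIE array and 9.31 in the VhlF/F array, and 8.60 in the VhlΔIE/Apcmin/+ array and 9.47 in the VhlF/F/Apcmin/+ array. It was thus lower in both Vhl deleted arrays, opposite to the class II genes. Iigp1, another such GTPase, differed by 0.23 and 1.67. Ifng itself lay between 3.27 and 3.41 on the 4 arrays, near the bottom of the scale, where a difference could be missed. Also under the floor, Cxcl9 differed by 0.80 and 0.81, Cxcl10 by -0.24 and -0.13 and Socs1 by -0.08 and -0.17. Costimulators and class II receptors, 4 of 8 above the floor, had medians of 0.01 and 0.15, and Cd86, a costimulator of antigen-presenting cells, differed by 0.53 and 0.82. It passed the floor in 1 array, VhlΔIE/Apcmin/+, at 6.20, and read 5.92, 5.38 and 5.40 in the VhlΔIE, VhlF/F/Apcmin/+ and VhlF/F arrays. Without Cd86 the medians were -0.11 and 0.13, and Icosl, the ligand of the T cell costimulator ICOS, differed by -0.16 and -0.20.

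Markers of cells that could carry class II moved with it in part. A change in the number of such cells and a change in RNA per cell cannot be told apart in scraped tissue. All 8 pan-leukocyte markers were higher in both Vhl comparisons, where 46.6% and 46.5% of all genes were higher in each alone. Their median differences were 0.66 and 0.41. Their summed linear level was 3143 in the VhlΔIE array and 2084 in the VhlF/F array, and 2664 in the VhlΔIE/Apcmin/+ array and 2128 in the VhlF/F/Apcmin/+ array. Itgb2 and Cd48 had the largest mean differences, at 0.92 and 0.68 and at 0.95 and 0.64. Cd48 passed the floor in the Vhl deleted arrays alone, and the other 7 markers had medians of 0.66 and 0.41.

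Macrophage and dendritic cell markers, 14 of 18 above the floor, had medians of 0.69 and 0.36, against 0.82 and 0.75 for the class II genes. Without the Apc mutation 14 were higher and 0 lower, where 46.6% of all genes were higher. With it 12 were higher and 2 lower, where 46.5% of all genes were higher. The summed linear level of all 18, those under the floor included, was 8385 in the VhlΔIE array and 5413 in the VhlF/F array. In the pair that carried the Min allele it was 7609 in the VhlΔIE/Apcmin/+ array and 6266 in the VhlF/F/Apcmin/+ array. The complement gene C1qb differed by 1.22 and 0.52, and the integrin Itgam, above the floor in the VhlΔIE array alone, by 2.18 and 1.25. The 13 markers without Itgam had medians of 0.69 and 0.33. The dendritic cell genes Zbtb46, Batf3, Xcr1 and Cd209a stayed under 6 on all arrays. Flt3, Itgax and Sirpa, of the same list, passed the floor on every array. They differed by 0.51 and 0.48, by 0.63 and 0.41, and by 0.22 and -0.03. For the Apc mutation with floxed Vhl all 14 markers were higher, where 6029 of all 11871 genes were. Their median was 0.22, and that of the class II genes 0.00. For the Apc mutation with deleted Vhl 6 markers were higher and 8 lower, where 5993 of all genes were higher. Their median was -0.09, and that of the class II genes -0.03. 

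B cell markers, 6 of 9 above the floor, had medians of -0.05 and -0.23 and were not higher as a group. Without the Apc mutation 3 were higher and 3 lower, where 46.6% of all genes were higher. With it all 6 were lower, where 6348 of all 11871 genes were. Ms4a1 differed by -0.18 and -0.43 and Blnk by -0.65 and -0.70. Blnk read 11.02 to 12.05 on the 4 arrays, and no other B cell marker read above 7.89. Whether the Blnk signal came from B cells was not tested. T cell markers, 3 of 7 above the floor, had medians of 0.13 and 0.02, with Cd3d at 0.48 and 0.02 and Cd3e at 0.05 and -0.31. Of the group 3 innate lymphoid cell list, 1 gene passed the floor, Il7r, in the VhlΔIE array alone, and it differed by 0.42 and 0.28. Epithelial markers, 11 of 11 above the floor, had medians of 0.04 and 0.10, with Krt20 at 0.09 and 0.39 and Cdx1 at -0.27 and -0.33. The largest differences of that list were those of Cdx2, of opposite sign at -0.62 and 0.67.

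Endothelial markers, all 7 above the floor, were higher in both comparisons, where 46.6% and 46.5% of all genes were higher in each alone. Their medians were 1.18 and 0.97. Their summed linear level was 2800 in the VhlΔIE array and 1111 in the VhlF/F array, and 2618 in the VhlΔIE/Apcmin/+ array and 1153 in the VhlF/F/Apcmin/+ array. Emcn, Plvap and Kdr were at least 2-fold higher in both comparisons, at 2.25 and 2.00, 1.39 and 1.38, and 1.18 and 1.27. Tek and Cdh5 differed by 1.43 and 1.14 without the Apc mutation, but passed the floor in the Vhl deleted arrays alone. The other 5 markers had medians of 1.18 and 1.27. Smooth muscle markers, all 6 above the floor, had medians of -0.51 and -0.43, with the intermediate filament gene Des at -0.79 and -0.47 and the calponin gene Cnn1 at -0.65 and -0.56. The part of leukocytes and of endothelium in the class II differences was not tested.

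**Figure D5:**
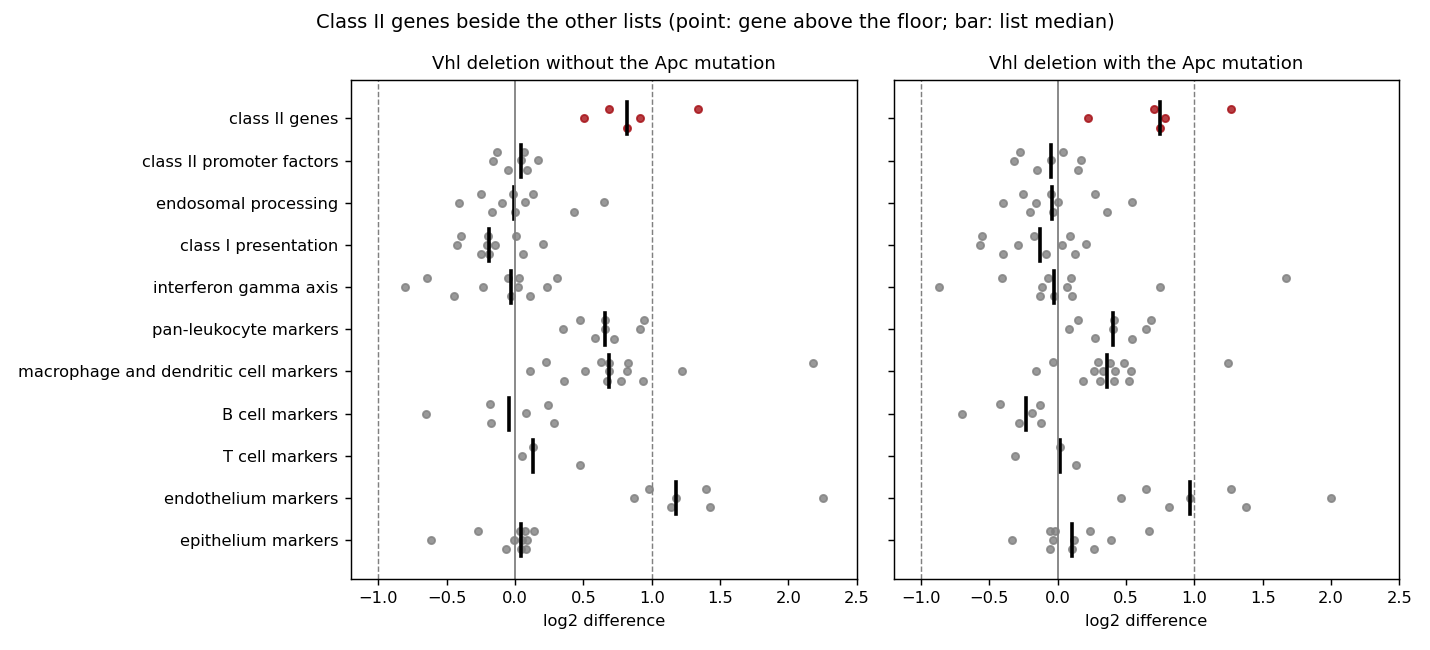
Vhl differences (log2) of the class II genes (red) and of 10 other gene lists (grey), without the Apc mutation on the left and with it on the right; points are genes above the floor, black bars are list medians and dashed lines mark 2-fold. The class II medians of 0.82 and 0.75 lie below the endothelial medians of 1.18 and 0.97 and above those of each other list plotted.

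Genes most like the class II genes over the 4 arrays were found by the root mean square distance to the mean profile of H2-Aa, H2-Ab1, H2-Eb1 and Cd74, each profile centred on its own mean. That profile had Vhl differences of 0.94 and 0.88. The closest of all genes above the floor was Bzw1, a regulator of translation initiation, at a distance of 0.02. Next came Cd93, a receptor of endothelial and myeloid cells, at 0.03, the endothelial matrix protein Mmrn2 at 0.03, the endothelial lipase anchor Gpihbp1 at 0.03 and the mitotic kinase Ttk at 0.04. The scavenger receptor Stab2 and the chromosomal passenger subunit Cdca8 followed at 0.04 and 0.05. The endothelial transcription factor Erg, the corepressor Hr and the sialomucin Podxl completed the 10, each at 0.05. The median distance over all genes was 0.48. Stab2 and Erg passed the floor in the Vhl deleted arrays alone. H2-Eb1 itself, which enters the profile, lay at 0.05, Cd74 at 0.09, H2-Aa at 0.10, H2-Ab1 at 0.20 and H2-DMa at 0.30, so these 10 genes were as near to the mean profile as H2-Eb1 was, or nearly so.

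Other transcripts also separated the arrays. Vhl differed by -1.36 and -1.61 in the comparisons without and with mutant Apc, and the 4 Cre control probe sets read 7.41 to 9.95 there and 2.97 to 4.45 in the Vhl floxed arrays. Xist read 5.58 and 6.25 in the VhlΔIE and VhlΔIE/Apcmin/+ arrays and 11.37 and 11.83 in the VhlF/F and VhlF/F/Apcmin/+ arrays, so Xist and Vhl status separated the arrays alike. The Y-linked gene Eif2s3y did not follow Xist, at 8.80 and 8.78 in the VhlΔIE/Apcmin/+ and VhlΔIE arrays and 7.27 and 8.58 in the VhlF/F/Apcmin/+ and VhlF/F arrays. The part of sex makeup in the Vhl differences cannot be told apart from that of Vhl deletion. The clock output gene Dbp differed by -3.51 and -2.68 and the positional gene Hoxd10 by -1.14 and -2.36, and their part in the class II differences was not tested. All 6 hepatocyte genes were higher in the VhlF/F array than in any other, Alb at 11.53 against at most 7.24. With the VhlF/F array left out and the VhlF/F/Apcmin/+ array as the control of VhlΔIE, a comparison that also differs in Apc status, H2-Ab1 was higher by 1.30, H2-Aa by 0.97, H2-Eb1 by 0.91, Cd74 by 0.81 and H2-DMa by 0.24. Against the VhlF/F array H2-DMa had differed by 0.50.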

How the data were processed

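The authors deposited log2 values of 45101 probe sets on 4 Affymetrix mouse arrays, processed with RMA in affy, per the submitters' processing notes; per the labels, 250 ng of total RNA was amplified for each. RMA corrects background, equalises array distributions and summarises probes by median polish, so a change common to most transcripts would not show. The sources used here give no versions. Gene symbols came from GEO's platform annotation: 34958 probe sets had 1 symbol, 932 several and 9211 none, and Entrez identifiers of 34754 were found in RefSeq of GRCm38.p6. Differences are 1 array minus another, counted at 2-fold among genes reaching log2 6, with no p-value at 1 array per genotype. The number of arrays limits the precision. Counting was tested on simulated arrays with planted differences above the threshold and small noise. That checks the code and does not measure the noise of these arrays.

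The members and the 15 other lists were chosen with earlier results of these data known. From each list the text names genes above the floor that were 2-fold apart in a Vhl comparison and the 2 with the largest mean Vhl difference. Beyond that rule, the genes of the class II region, the other class II genes and markers under the floor were named after their values were seen. So were Ifng, Cxcl9, Cxcl10, Socs1, Flt3, Itgax, Sirpa, Cdx2, Eif2s3y, Dbp and Hoxd10. Of the hepatocyte list Alb alone was named. The 10 genes most like the members were named by distance. Alternatives were no floor, a floor of 7, values under 6 raised to 6, the mean over probe sets, no _s_at or _x_at probe sets, cyclic loess and a 1.5-fold threshold. After seeing the data, the other floxed array as control and the shared H2-DMb probe set were added. Loess ran in limma 3.58.1 under R 4.3.3, and all else in Python 3.11.15 with pandas 2.3.3 and numpy 2.4.6, with plots in matplotlib 3.10.9.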

Additional observations from a re-analysis of the deposited data

Results flagged for a closer look

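Some class II genes had differences of opposite sign under the same contrast in the other genetic background. With 1 array a genotype, none of these differences was tested. For Vhl deletion, H2-Ea was at 0.26 on wild-type and -0.16 on mutant Apc, and H2-Eb2 at -0.37 on wild-type and 0.18 on mutant Apc. For the Apc mutation, H2-DMa differed by 0.26 with floxed and -0.019 with deleted Vhl, H2-Ab1 by 0.042 and -0.028, H2-Eb1 by 0.0011 and -0.16, and H2-Eb2 by -0.27 and 0.28.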

How the results depend on the processing

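The median Vhl difference of the class II genes stayed positive under all 8 alternatives that give it, from 0.75 to 0.93 without the Apc mutation and from 0.66 to 0.79 with it. The count of genes at least 2-fold apart was 1 in both Vhl comparisons under all alternatives but the 1.5-fold threshold, which gave 4 and 4, as a lower threshold must. The median Apc differences ran from -0.06 to 0.04 with floxed Vhl, changing sign, and from -0.16 to -0.03 with deleted Vhl. Averaging probe sets put H2-DMa under the floor. H2-Aa had no probe set left without _s_at and _x_at probe sets, so its value rests on probe sets that can match other sequences. With the floxed arrays exchanged, H2-DMa was at 0.24 for VhlΔIE and 0.48 for VhlΔIE/Apcmin/+. Ciita, under the floor, and H2-DMb1, without a probe set of its own, are limited by signal and by design. No replicate could be left out, since each genotype has 1 array. Paired by Apc status, the Vhl differences averaged 1.30 for H2-Ab1, 0.83 for H2-Eb1, 0.76 for H2-Aa, 0.74 for Cd74 and 0.36 for H2-DMa. An additive fit of Vhl and Apc status, which leaves 1 residual degree of freedom and takes their interaction as error, was not run.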
